A study of Homo sapiens with 18 samples.

Results

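The DNA repair genes described here are the genes whose symbols name the Fanconi proteins, the RAD50 to RAD59 group, XRCC, ERCC, MSH, MLH, PMS, BRCA and PARP proteins and the repair DNA polymerases, with PALB2, BRIP1, BARD1, ATM, ATR, BLM, WRN, NBN, MRE11, XPA, XPC, LIG3, LIG4, PRKDC and MGMT added by name. This choice by symbol found 67 genes among the 14765 listed in both of the authors' deposited tables, 66 of them protein-coding. The symbols of the protein-coding genes MSH4 and RAD51AP2 match as well, but these genes were not among those listed and are not analysed here.

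H33 and H12 are clones of the human hepatoblastoma line HepG2 that carry the DNAJB1-PRKACA fusion, the gene fusion of fibrolamellar carcinoma. HepG2, which the labels give as wild type, is the control, and poly-A RNA of 6 biological replicates was sequenced per line. All cells were grown in the same RPMI1640 medium with serum, and the labels name no drug. Each clone is 1 clone, so a difference from HepG2 covers everything that separates the lines, and the descent of the clones was not checked. Since separate cultures are not stated for the replicates, a p-value here covers only the spread between these samples. Values per library were not used and depth is unknown, so each result rests on the log2 fold change of clone over HepG2, its adjusted p-value and a standard error (SE) implied by its likelihood ratio. Levels are library-scaled CPM values of each group, implied by the mean level and the fold change.

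Cells repair DNA by several routes that share few proteins. Mismatch repair removes copying errors, base excision and single-strand break repair act on small lesions, nucleotide excision repair cuts out bulky adducts, and homologous recombination, end joining and the Fanconi pathway deal with double-strand breaks and crosslinks. Many of the proteins work as fixed complexes, in which the loss of a partner often destabilises the other. Most of these genes are expressed in every dividing cell, and their levels commonly follow the cell cycle.

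Most DNA repair genes differed between the clones and HepG2, and most differences were small. In the authors' deposited table for H33, 56 of the 67 genes (83.6%) passed an adjusted p of 0.05, 32 of them higher and 24 lower, against 89.6% of all listed genes (44.2% higher and 45.3% lower). The authors' deposited table for H12 had 55 (82.1%) past that threshold, 34 higher and 21 lower, against 86% of all listed genes (41.8% higher and 44.3% lower). The share of repair genes that were called was thus near the share of all genes in both clones. In bulk RNA, fewer cells with a transcript and less of it per cell cannot be told apart.

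The changes of the repair genes were small beside those of the listed genes as a whole. Their median absolute log2 fold change was 0.49 in the authors' deposited table for H33 and 0.43 in that for H12, while the medians of all listed genes were 0.84 and 0.83. At least 1 log2 unit of change was reached by 9 repair genes (13.4%) in the authors' deposited table for H33, against 44.5% of all listed genes, and by 10 (14.9%) in that for H12, against 44.1%. The gap was similar within the range of mean level that the repair genes span. That range takes in most listed genes, so genes were not matched for level. Among the 12827 listed genes within the same range of mean level as the repair genes, the share was 40.7% in H33, and among the 12655 in H12 it was 40.0%, again from the authors' deposited tables. The medians of the signed changes in the authors' deposited tables were 0.09 for repair genes in H33 and 0.18 in H12, against -0.02 and -0.03 for all listed genes. This gap in size is a description of the 67 genes and was given no test.

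**Figure D1:**
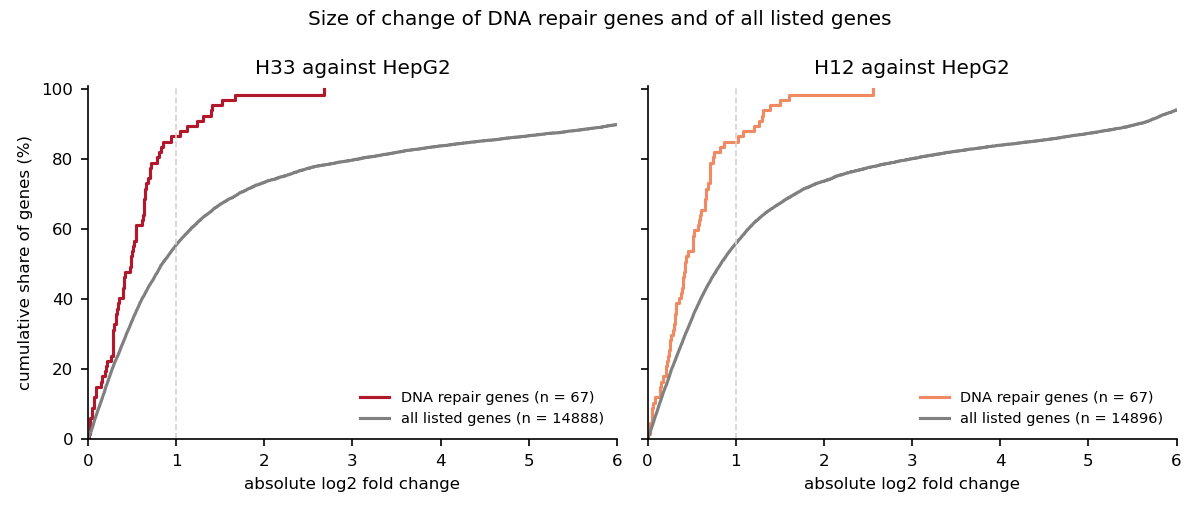
Cumulative share of genes (%) by absolute log2 fold change in H33 (left) and H12 (right) against HepG2, for the 67 DNA repair genes (coloured) and all listed genes (grey, drawn up to 6 log2 units). The coloured lines rise faster: 9 repair genes in H33 and 10 in H12 lie beyond the dashed line at 1, against 44.5% and 44.1% of all listed genes.

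Of the 10 genes with called changes of at least 1 log2 unit in either clone, 9 are described here, from 6 of the 8 protein classes. ERCC1, FANCB, XRCC1, PMS2, POLK and ERCC6 were higher in the clones, and PALB2, ERCC8 and FANCF were lower. ERCC1, the partner of the XPF nuclease, had the largest change of the 67 in both clones, with an implied 192 CPM in H33 and 177 CPM in H12, against 30.2 CPM in HepG2. PALB2, which links BRCA1 to BRCA2, was lower, with 27.2 CPM in H33 and 29.5 CPM in H12, against 67.6 CPM in HepG2. The 2 clones share the HepG2 libraries as their control, so the likeness of their values is not independent support for either.

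**Figure D2:**
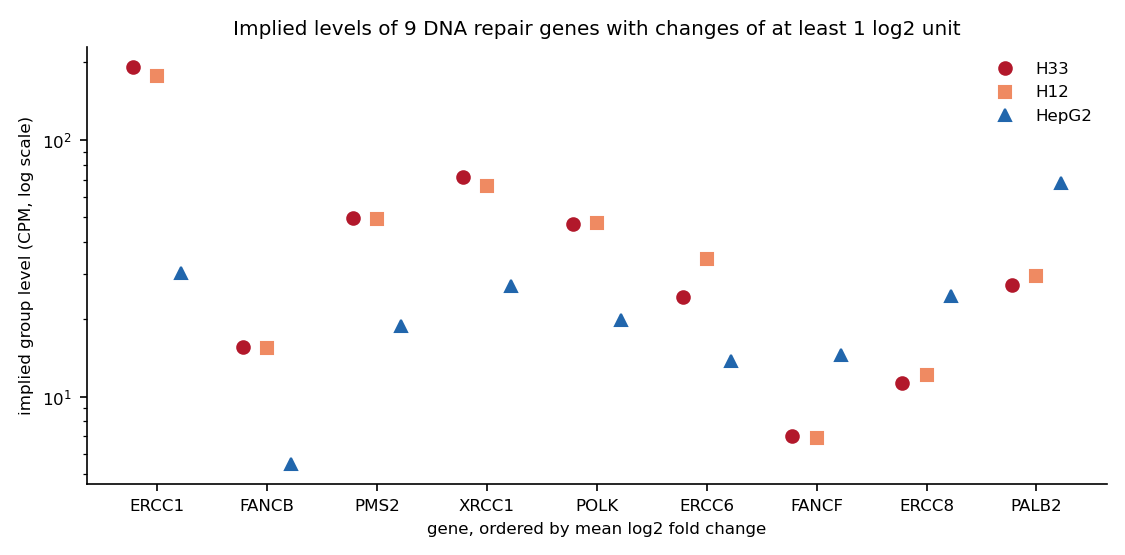
Implied group levels (CPM, log axis) of 9 DNA repair genes with a called change of at least 1 log2 unit in either clone, for H33 (circles), H12 (squares) and HepG2 (triangles), ordered by mean log2 fold change. The values are implied group levels without error bars, since values per library were not used; both clones lie above HepG2 from ERCC1 to ERCC6 and below it from FANCF to PALB2.

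Several of these genes share a start region with a gene on the opposite strand, which lets the behaviour of the 2 transcripts be set side by side. In the GENCODE 29 annotation, 27 of the 67 repair genes (40.3%) have a listed gene that begins within 1000 bases of their own start and runs the other way, against 3039 of 14765 listed genes (20.6%). PALB2 and the dynactin gene DCTN5 begin 82 bases apart and moved together: DCTN5 was at -1.26 (SE 0.03) in H33 and -1.13 (SE 0.14) in H12 in the authors' deposited tables, beside -1.31 and -1.20 for PALB2. FANCB and MOSPD2, 372 bases apart, were both higher, MOSPD2 by 1.29 (SE 0.07) in H33 and by 1.30 (SE 0.05) in H12 in the authors' deposited tables. PMS2 and the tRNA synthetase scaffold gene AIMP2 begin 120 bases apart and parted: AIMP2 was at 0.06 (SE 0.04) in H33 and -0.02 (SE 0.05) in H12 and was called in neither of the authors' deposited tables. ERCC8 and the mitochondrial assembly factor gene NDUFAF2, 56 bases apart, parted as well, with NDUFAF2 at 0.06 (SE 0.05) and 0.02 (SE 0.05) in the authors' deposited tables, called in neither. The 10 nearest listed genes of PALB2, 5 on each side, had medians of -1.31 in H33 and -1.20 in H12. Around FANCB these medians were 0.70 and 0.66, around PMS2 0.74 and 0.62, and around ERCC8 0.62 and 0.62. The part of such regional shifts in the values of the pairs was not tested.

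The DNA in front of these 4 repair genes is printed because 2 of the pairs moved together and 2 parted. Sequences are the RefSeq windows (GRCh38.p14) 5′ to 3′ on the strand of the repair gene, ending at the base before its RefSeq start. They reach back to the RefSeq start of the partner, except for FANCB, where the window of 250 bases stops short of MOSPD2. PALB2 covers chr16:23641311-23641465, FANCB chrX:14873070-14873319, PMS2 chr7:6009107-6009271 and ERCC8 chr5:60945071-60945204, all on the minus strand. RefSeq places the starts farther apart than GENCODE 29 for PALB2, PMS2 and ERCC8, so the stretches of 155, 165 and 134 bases are longer than the distances given from GENCODE. Capitals mark matches, on either strand, to the letters CCAAT, to the GC box GGGCGG, to the cAMP response element (CRE) TGACGTCA, to the ETS letters CCGGAAG and to the E2F letters TTTCCCGC or TTTGGCGC.
PALB2: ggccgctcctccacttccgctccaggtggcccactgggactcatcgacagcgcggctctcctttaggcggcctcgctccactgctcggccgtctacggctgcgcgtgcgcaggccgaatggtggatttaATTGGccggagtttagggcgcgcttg
FANCB: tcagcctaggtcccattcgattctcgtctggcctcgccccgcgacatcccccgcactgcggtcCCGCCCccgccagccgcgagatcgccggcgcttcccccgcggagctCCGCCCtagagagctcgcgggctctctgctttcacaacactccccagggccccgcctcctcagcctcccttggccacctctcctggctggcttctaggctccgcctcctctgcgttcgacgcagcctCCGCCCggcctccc
PMS2: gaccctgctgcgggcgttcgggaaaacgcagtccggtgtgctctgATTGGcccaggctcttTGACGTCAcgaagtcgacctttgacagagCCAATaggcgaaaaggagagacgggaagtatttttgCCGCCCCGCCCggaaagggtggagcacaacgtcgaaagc
ERCC8: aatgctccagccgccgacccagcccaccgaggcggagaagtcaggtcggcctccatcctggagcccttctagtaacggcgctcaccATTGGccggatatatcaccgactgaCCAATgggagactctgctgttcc
The PALB2 stretch holds 1 CCAAT match and that of FANCB 3 GC boxes. The PMS2 stretch holds 1 CRE, 2 CCAAT matches and 2 GC boxes that overlap each other, and that of ERCC8 holds 2 CCAAT matches. A match is a run of letters only and was not tested as a binding site.

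Over the 56 repair genes with a RefSeq window of 300 bases around the start, 4 (7.14%) held the CRE letters, against 3.16% of 11000 listed genes. The CRE is the site through which the cAMP-dependent kinase acts by way of CREB. The 4 genes were PMS2, XRCC2, PARP2 and RAD51C, of which PMS2 and XRCC2 were higher, PARP2 lower and RAD51C not called in both of the authors' deposited tables. E2F letters stood in 8 windows (14.3%), against 3.61% of listed genes: those of FANCC, FANCD2, MSH3, MSH6, POLI, XPC, XRCC2 and XRCC6. In the authors' deposited table for H33, 4 of these 8 were higher and 3 lower, and in that for H12, 3 were higher and 3 lower. CCAAT was present in 35.7% and the GC box in 71.4% of the repair gene windows, against 36.9% and 69.6% of listed genes, and the ETS letters in 32.1%, against 19.2%.

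Across all pairs of this kind, sharing a start region went with the same direction about as often for repair genes as for others. Of the 27 pairs, both genes were called for 20 in the authors' deposited table for H33, and 14 of these (70%) had the same direction, against 71.8% of 1154 other pairs. The authors' deposited table for H12 had 15 pairs with both genes called and 11 in the same direction (73.3%), against 72.0% of 1041 others. ATM and NPAT were called in opposite directions in H33 only. NPAT, a regulator of histone transcription, was at 0.75 (SE 0.05) in H33 and 0.88 (SE 0.05) in H12 in the authors' deposited tables. ATM was called lower in H33 (-0.32) and was not called in H12 (-0.13). LIG4 was higher and its partner ABHD13 lower in both clones (ABHD13 at -0.49 and -0.40 in the authors' deposited tables). FANCF lies beside GAS2, whose implied level was 0.0617 CPM in H33 and 0.747 CPM in H12, against 48.1 CPM in HepG2.

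**Figure D3:**
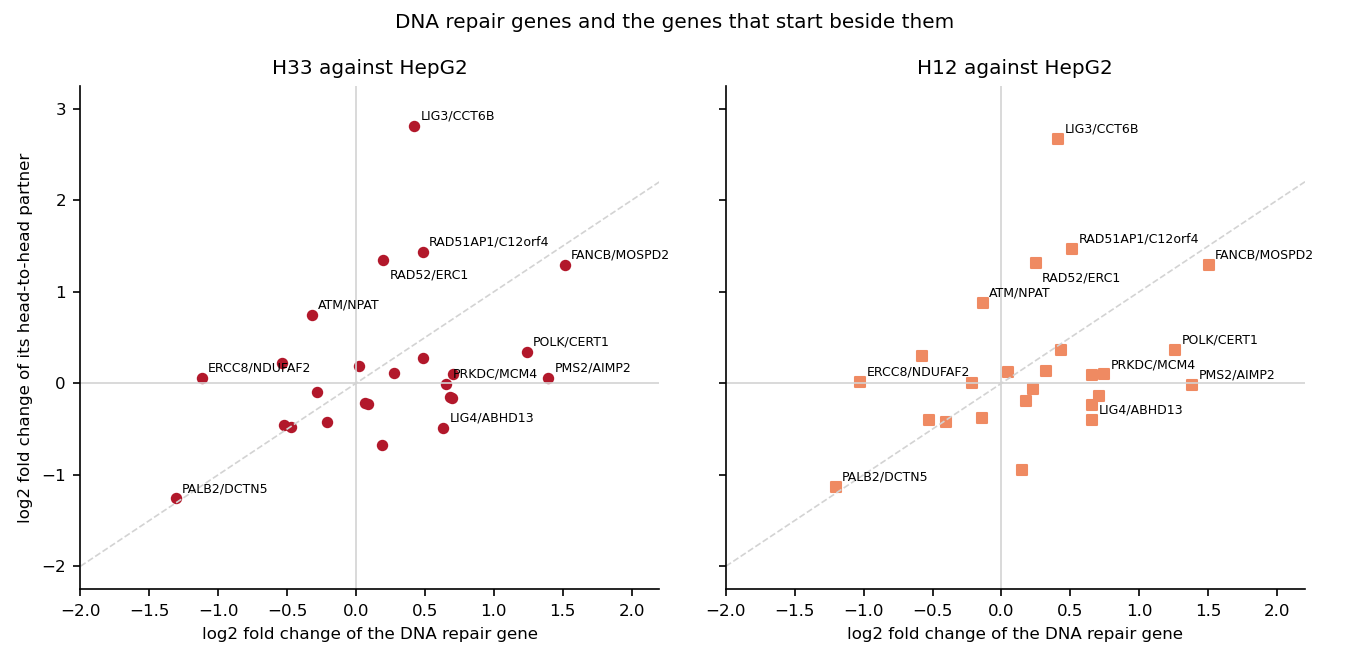
Log2 fold change of DNA repair genes (x axis) and of the gene that starts within 1000 bases on the opposite strand (y axis), in H33 (left) and H12 (right) against HepG2; the dashed line marks equal changes. PALB2/DCTN5 and FANCB/MOSPD2 lie near that line and PMS2/AIMP2 and ERCC8/NDUFAF2 near the horizontal 0 line; the pair FANCF/GAS2, with GAS2 at -9.61 and -6.04, lies off the plot.

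Genes of nucleotide excision repair moved furthest apart. ERCC1, which with XPF forms the nuclease that cuts 5′ of a lesion (ENSG00000012061, GRCh38 chromosome 19 from 45407333 to 45478828, minus strand), rose by 2.67 (SE 0.06) in H33 and by 2.55 (SE 0.10) in H12, 6.37-fold and 5.87-fold, with an adjusted p listed as 0 and of 7.62e-147 in the authors' deposited tables. ERCC4, which encodes XPF, fell by 0.63 (SE 0.06) in H33 and by 0.60 (SE 0.05) in H12 in the authors' deposited tables. ERCC1 and CD3EAP share 28.6% of the exon bases of ERCC1 on opposite strands, and the use of strand in counting is not given in the sources used here. CD3EAP itself had 0.42 in H33 and 0.33 in H12 in the authors' deposited tables, and its implied level in H33 was 44.6 CPM, below that of ERCC1. In HepG2 its implied level was 33.4 CPM, above the 30.2 CPM of ERCC1, so the value of ERCC1 is uncertain without strand. ERCC1 stood above all 10 of its nearest listed genes, 5 on each side, whose median was 0.71 in H33 and 0.35 in H12 in the authors' deposited tables.

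The transcription-coupled branch split between its 2 Cockayne syndrome genes. ERCC6 encodes CSB, the ATPase that senses stalled RNA polymerase (ENSG00000225830, chromosome 10 from 49455368 to 49539538), with an implied 24.5 CPM in H33 and 34.3 CPM in H12, against 13.8 CPM in HepG2. Its log2 fold change was 0.83 (SE 0.06, adjusted p = 1.06e-45) in H33 and 1.31 (SE 0.07, adjusted p = 3.19e-79) in H12 in the authors' deposited tables. ERCC8 encodes CSA, the ubiquitin ligase adaptor of the same branch (ENSG00000049167, chromosome 5 from 60873831 to 60945073), with 11.3 CPM in H33 and 12.2 CPM in H12, against 24.6 CPM in HepG2. Its fold change was -1.12 (SE 0.06, adjusted p = 8.48e-71) and -1.02 (SE 0.08, adjusted p = 1.92e-33) in the authors' deposited tables. ERCC8 shares 28.3% of its exon bases with the pseudogene GNL3LP1. The lesion sensor gene XPC (-0.52 and -0.53) and the scaffold gene XPA (-0.28 and -0.30) were lower in the authors' deposited tables. The 3′ nuclease gene ERCC5, whose exons are shared in large part with the readthrough gene BIVM-ERCC5 and whose value is uncertain for that reason, was at 0.49 (SE 0.17) and 0.25 (SE 0.12) in the authors' deposited tables, past the threshold in both.

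ERCC6 was the only gene of the 67 that passed the test of a difference between the clones. The difference of H33 minus H12 was -0.49 (SE 0.09, adjusted p = 2.31e-05, two-sided normal test on the difference of the log2 fold changes, Benjamini-Hochberg over all genes tested). Of the 13449 genes given this test, 2.03% passed it. For the other repair genes named here the difference lay between -0.18 (ATM) and 0.24 (ERCC5). When the HepG2 libraries that both comparisons share were allowed for, the nuclease gene MRE11 also passed, at -0.17 (adjusted p = 0.0339, against 0.306 without this allowance).

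**Figure D4:**
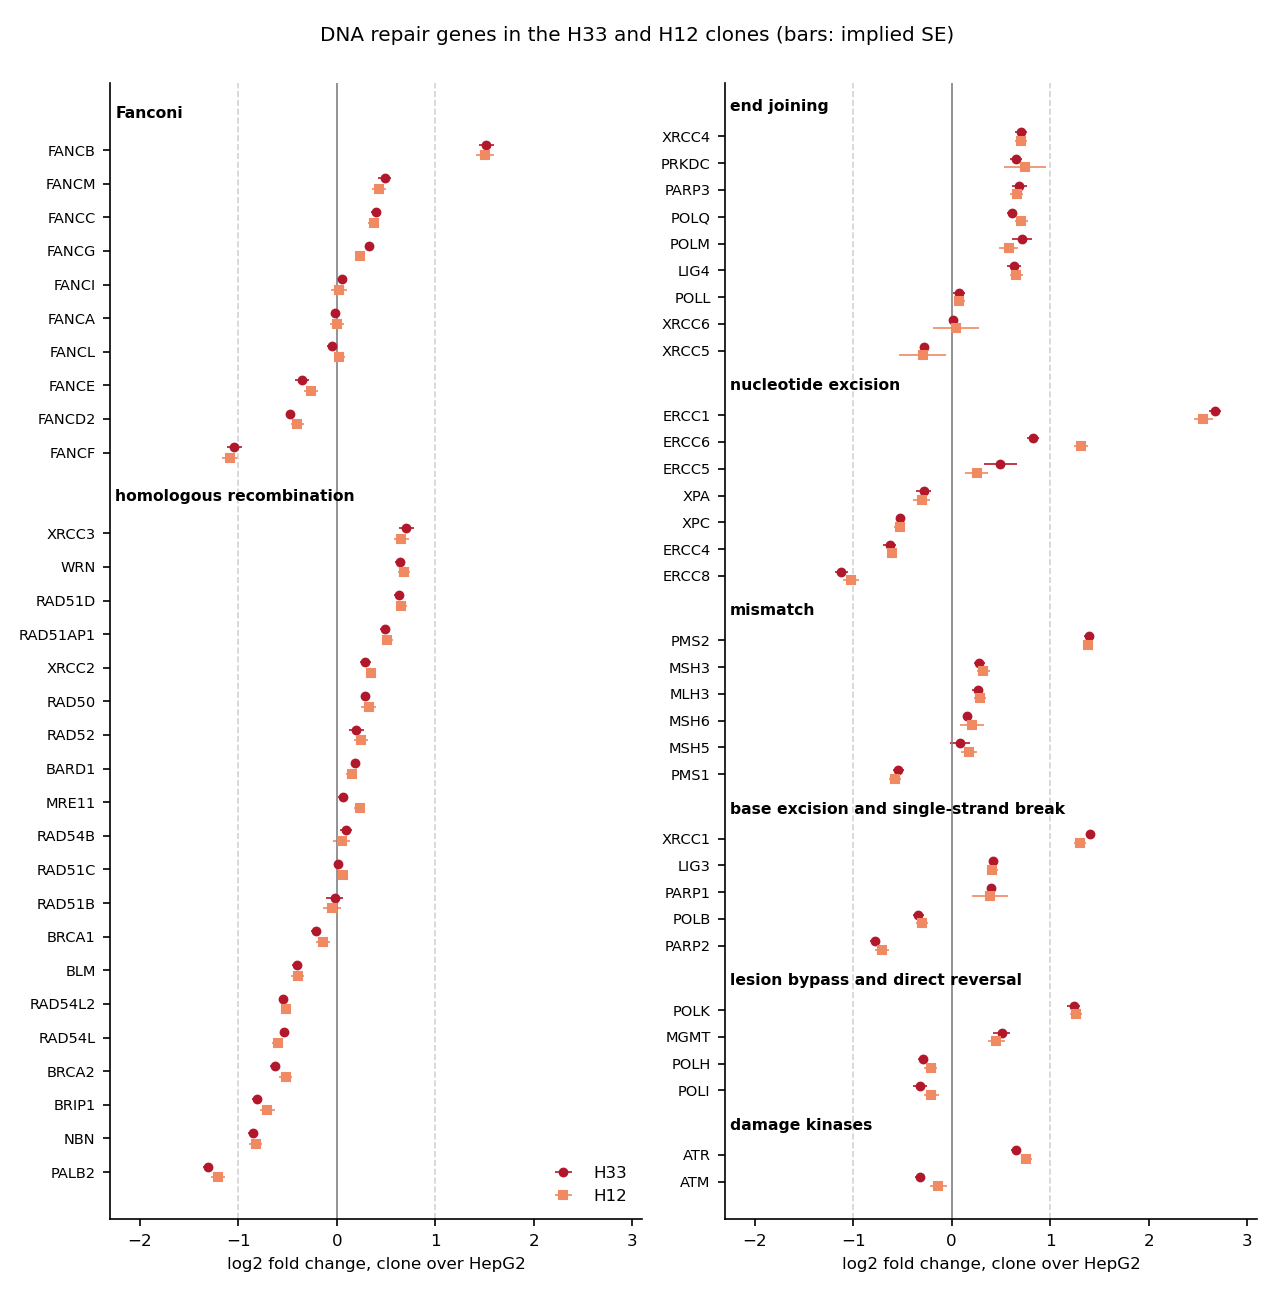
Log2 fold change over HepG2 of 63 DNA repair genes by class in H33 (circles) and H12 (squares); bars are the implied SE and dashed lines mark 1 log2 unit. ERCC1 lies farthest to the right and PALB2 farthest to the left, and the markers of the clones are apart for ERCC6.

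In mismatch repair, 5 of 8 genes were higher and 2 lower in each clone by the authors' deposited tables. PMS2, the endonuclease subunit of the main MutL dimer (ENSG00000122512, chromosome 7 from 5973239 to 6009125), rose by 1.39 (SE 0.05, adjusted p = 5.83e-182) in H33 and by 1.38 (SE 0.05, adjusted p = 5.72e-153) in H12 in the authors' deposited tables. Its implied level was 49.5 CPM in H33 and 49.1 CPM in H12, against 18.8 CPM in HepG2. Of its relatives, PMS1 was lower (-0.54 and -0.57) and the meiotic gene MLH3 higher (0.26 and 0.29) in the authors' deposited tables.

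PMS2 has near-identical copies, so its value is uncertain where reads could be split among them. GENCODE 29 lists 11 pseudogenes named after it, of which 6 are in the authors' deposited tables. The most abundant, PMS2CL, was at 1.19 in H33 and 1.11 in H12, and all 6 were higher in both clones by the authors' deposited tables, by 0.16 to 1.38 in H33 and 0.21 to 1.37 in H12. The mismatch sensor genes MSH3 (0.28 and 0.32) and MSH6 (0.15, SE 0.03, and 0.21, SE 0.13) had small values above 0, with MSH6 not called in H12 (adjusted p = 0.113) in the authors' deposited tables. MSH6 is uncertain without strand, since 16.2% of its exon bases lie opposite FBXO11, at 0.92 in H33 and 0.90 in H12. The meiotic gene MSH5, at 0.09 and 0.18, shares 47.3% of its exon bases with a readthrough gene and was called in H12 alone in the authors' deposited tables.

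Of the 5 genes of base excision and single-strand break repair, 3 were higher and 2 lower in both clones. XRCC1, the scaffold that brings ligase 3 to single-strand breaks (ENSG00000073050, chromosome 19 from 43543040 to 43580473), had an implied 71.5 CPM in H33 and 66.4 CPM in H12, against 27.0 CPM in HepG2. Its rise was 1.41 (SE 0.04, adjusted p = 4.31e-245) in H33 and 1.30 (SE 0.06, adjusted p = 1.22e-103) in H12 in the authors' deposited tables, above 9 of its 10 nearest listed genes. LIG3, its ligase, rose by 0.42 (SE 0.04) and 0.41 (SE 0.06) in the authors' deposited tables, with 29.1% of its exon bases shared with RFFL on the other strand. The break sensors parted: PARP1 was higher, by 0.40 (SE 0.03) in H33 and by 0.39 (SE 0.18) in H12, and PARP2 lower, at -0.78 (SE 0.05) and -0.71 (SE 0.07), in the authors' deposited tables. The gap-filling polymerase gene POLB was lower as well (-0.34 and -0.30 in the authors' deposited tables).

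Homologous recombination, the largest class with 21 genes, was mixed. Protein-coding genes of the RAD50 to RAD59 group were placed in it by symbol alone, RAD54L2 among them. By the authors' deposited tables, H33 had 8 genes higher and 9 lower, while H12 had 9 higher and 8 lower, with class medians of 0.02 and 0.05. All listed genes had 44.2% higher and 45.3% lower in H33, and 41.8% higher and 44.3% lower in H12. PALB2, the bridge between BRCA1 and BRCA2 (ENSG00000083093, chromosome 16 from 23603160 to 23641310), was at an implied 27.2 CPM in H33 and 29.5 CPM in H12, against 67.6 CPM in HepG2. Its fold change was -1.31 (SE 0.05, adjusted p = 1.46e-149) in H33 and -1.20 (SE 0.07, adjusted p = 8.66e-59) in H12 in the authors' deposited tables. All 10 of its nearest listed genes had values below 0 in both clones, and their medians, -1.31 and -1.20 in the authors' deposited tables, equalled its own to the 2 decimals given. BRCA2, which PALB2 binds, was at -0.63 (SE 0.05) and -0.52 (SE 0.07), and the helicase gene BRIP1 at -0.81 (SE 0.05) and -0.70 (SE 0.08) in the authors' deposited tables.

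The rises in this class were smaller. XRCC3 (0.71 and 0.65) and RAD51D (0.63 and 0.66), both of recombination mediator complexes, and WRN (0.64 and 0.68), the Werner syndrome helicase, led them in the authors' deposited tables. For XRCC3, 76.7% of exon bases lie opposite exons of KLC1, so that its value is uncertain without strand. Of the MRN break sensor, NBN was lower (-0.85 and -0.82), RAD50 higher (0.29 and 0.32, with 79.7% of its exon bases shared with AC116366.3) and MRE11 at 0.06 in H33, not called, and 0.23 in H12, called, in the authors' deposited tables. BRCA1 was called lower in H33 (-0.21, SE 0.05) and not in H12 (-0.14, SE 0.07, adjusted p = 0.0546) in the authors' deposited tables, and the difference between the clones did not pass (adjusted p = 0.980). Its partner BARD1 was higher by 0.19 and 0.15 in the authors' deposited tables. The DNA motor gene RAD54L (-0.54 and -0.60), its relative RAD54L2 (-0.54 and -0.51) and the Bloom helicase gene BLM (-0.40 and -0.40) were lower in both of the authors' deposited tables. RAD51AP1 (0.49 and 0.52), XRCC2 (0.29 and 0.35) and RAD52 (0.20 and 0.25) were higher in both, and RAD51B, RAD51C and RAD54B were called in neither of the authors' deposited tables. The values of RAD54B and RAD54L are uncertain, since 59.1% of the exon bases of RAD54B are shared with FSBP (-2.13 and -1.05 in the authors' deposited tables) and 25.1% of those of RAD54L lie opposite LRRC41 (0.56 and 0.45).

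Since recombination genes commonly follow the S phase, a list of 24 genes of replication and proliferation was set beside them. By the authors' deposited tables, H33 had 14 of them higher and 9 lower (median 0.32), while H12 had 12 higher and 9 lower (median 0.29). Beside these stand 44.2% higher and 45.3% lower for all listed genes in H33, and 41.8% and 44.3% in H12. The part of proliferation in the values of BRCA2 or BRIP1 was not tested.

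The Fanconi genes, 8 of which encode the core complex that ubiquitinates FANCD2 and FANCI at crosslinks, ran from FANCF to FANCB. FANCB, a core subunit on the X chromosome (ENSG00000181544, from 14835961 to 14873069), had 15.6 CPM in H33 and 15.4 CPM in H12, against 5.45 CPM in HepG2. Its rise was 1.52 (SE 0.08, adjusted p = 1.73e-87) in H33 and 1.51 (SE 0.09, adjusted p = 5.29e-62) in H12 in the authors' deposited tables. FANCF, the core's adaptor (ENSG00000183161, chromosome 11 from 22622890 to 22625841), had 7.03 CPM in H33 and 6.90 CPM in H12, against 14.5 CPM in HepG2. Its fold change was -1.04 (SE 0.07, adjusted p = 1.59e-47) in H33 and -1.08 (SE 0.08, adjusted p = 6.47e-40) in H12 in the authors' deposited tables, and 11.3% of its exon bases lie opposite GAS2. The scaffold gene FANCA, the ubiquitin ligase gene FANCL and FANCI were called in neither of the authors' deposited tables, with values from -0.05 to 0.05. FANCA is uncertain, since 23.6% of its exon bases lie opposite ZNF276, which was at 1.47 and 1.33 in the authors' deposited tables. FANCM (0.49 and 0.43), FANCC (0.40 and 0.38) and FANCG (0.33 and 0.24) were higher, and FANCD2 (-0.47 and -0.40) and FANCE (-0.35 and -0.26) lower, in both of the authors' deposited tables.

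End joining had 9 genes. By the authors' deposited tables, 6 were higher in both clones, where 44.2% (H33) and 41.8% (H12) of all listed genes were higher, by 0.61 to 0.71 in H33 and 0.58 to 0.75 in H12, and the class medians were 0.63 and 0.66. They were the ligase gene LIG4 and its cofactor XRCC4, the kinase gene PRKDC, the polymerase genes POLQ and POLM, and PARP3, which aids end joining. The Ku subunits did not follow: XRCC6 was at 0.02 (SE 0.03) in H33 and 0.04 (SE 0.23) in H12, called in neither of the authors' deposited tables, and XRCC5 at -0.28 (SE 0.03), called, and -0.29 (SE 0.24, adjusted p = 0.235), not called. Per kilobase of annotated exon, XRCC6 was the most abundant of the 67 genes in each group, at 192 in H33, 196 in H12 and 190 CPM per kilobase in HepG2, with XRCC5 next at 113, 113 and 138. Such abundant genes had wide errors in H12, where the largest SE of the 67 was that of XRCC5, so smaller changes were not detectable there. POLL, a gap-filling polymerase gene, was at 0.07 and 0.08 and was called in neither of the authors' deposited tables.

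Among the lesion bypass polymerases, POLK alone reached 1 log2 unit. It encodes polymerase kappa, which copies past bulky adducts on guanine (ENSG00000122008, chromosome 5 from 75511756 to 75601144), and had 46.9 CPM in H33 and 47.6 CPM in H12, against 19.8 CPM in HepG2. Its rise was 1.24 (SE 0.06, adjusted p = 8.01e-85) in H33 and 1.26 (SE 0.06, adjusted p = 1.87e-91) in H12 in the authors' deposited tables, next to a median of 1.13 and 0.99 for its 10 nearest listed genes. POLH (-0.29 and -0.21), the polymerase that passes ultraviolet dimers, and its relative POLI (-0.32 and -0.21) were lower in the authors' deposited tables. MGMT, which takes alkyl groups off guanine directly, was higher by 0.51 (SE 0.09) and 0.45 (SE 0.09) in the authors' deposited tables.

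Of the kinases that signal damage, ATR, which answers stalled forks, rose by 0.65 (SE 0.05) in H33 and by 0.76 (SE 0.06) in H12 in the authors' deposited tables. ATM, which answers double-strand breaks, was lower in H33 (-0.32, SE 0.05) and not called in H12 (-0.13, SE 0.08, adjusted p = 0.121) in the authors' deposited tables, and the difference between the clones did not pass (adjusted p = 0.595).

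Partners within a complex were then compared. The XRCC4 and LIG4 pair lay within 0.07 log2 units of each other in H33 and 0.05 in H12 in the authors' deposited tables. The ERCC1 and ERCC4 pair was 3.30 and 3.16 log2 units apart in the authors' deposited tables. As a ratio of levels per kilobase of annotated exon, ERCC1 stood to ERCC4 at 16.2 in H33 and 14.6 in H12, against 1.64 in HepG2. RAD50 to NBN stood at 1.68 in H33 and 1.69 in H12, against 0.764 in HepG2, and XRCC1 to LIG3 at 3.60 and 3.35, against 1.81. Annotated exons can include stretches that these cells do not transcribe, so ratios between groups are firmer than those within a group.

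**Figure D5:**
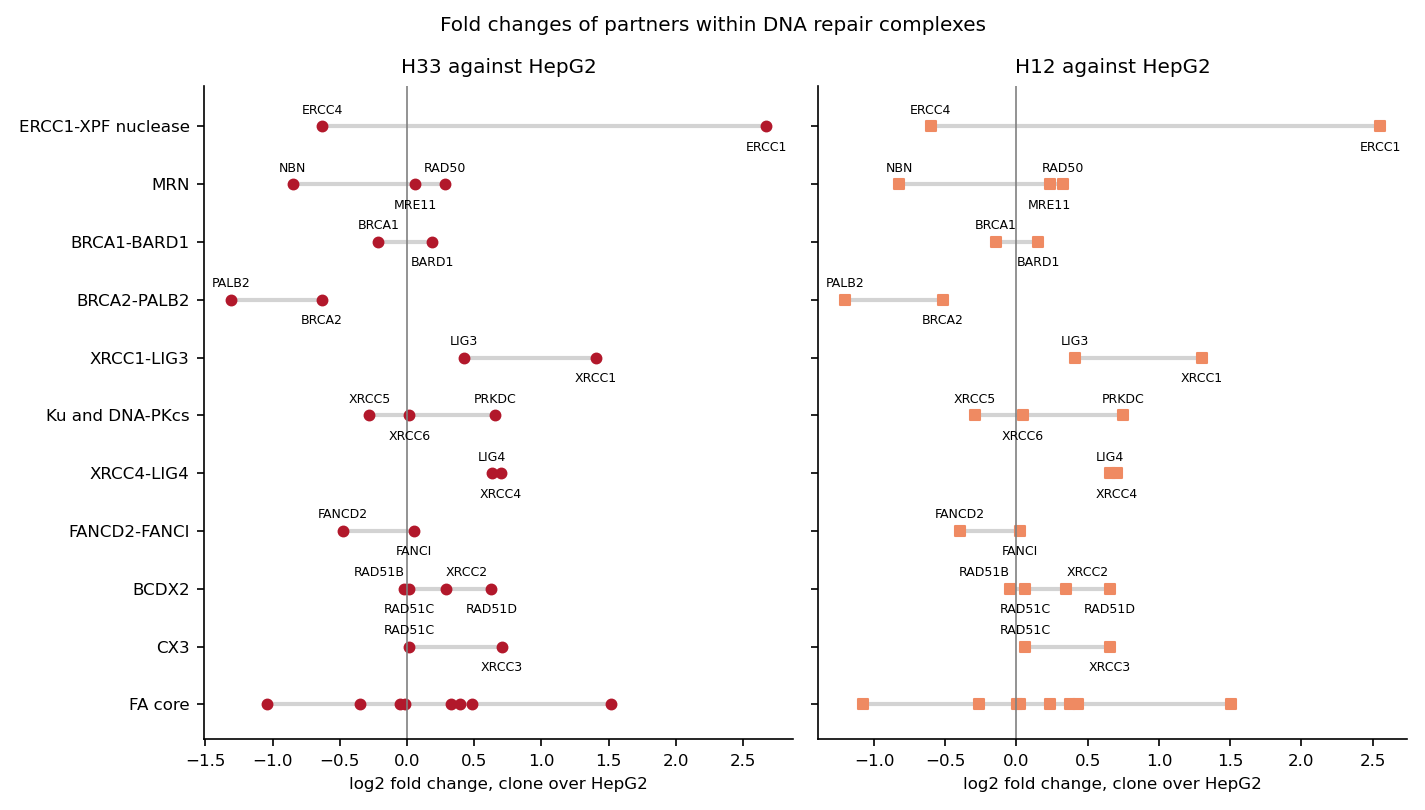
Log2 fold changes over HepG2 of the genes of 11 repair complexes in H33 (left, circles) and H12 (right, squares); grey lines span each complex, and the 8 Fanconi core genes are left without names. The ERCC1-XPF line is the longest, with a range of 3.30 in H33, and XRCC4-LIG4 is the shortest, with 0.07.

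Other genes of the same pathways, in 8 lists of 121 genes that do not hold the 67, moved in both directions. Of the 119 listed in the authors' deposited tables, H33 had 42 higher and 57 lower (median -0.14), while H12 had 39 higher and 59 lower (median -0.10). All listed genes had 44.2% higher and 45.3% lower in H33 and 41.8% higher and 44.3% lower in H12 by the authors' deposited tables. Beside those shares, these counts and the counts of each single list below are read as descriptions. The list of damage signalling and checkpoint genes had 11 of 17 lower and 3 higher in each clone by the authors' deposited tables, with the mediator gene MDC1 at -0.99 in H33 and -0.85 in H12 and the fork protection gene TIPIN at -0.74 and -0.68, and with TOPBP1, an activator of ATR, at 0.79 and 0.81 and the histone variant gene H2AX at 0.55 and 0.55. Fanconi partners had 6 of 12 lower and 2 higher in H33, and 7 lower and 1 higher in H12. They include UBE2T, the conjugating enzyme for FANCD2, at -1.25 and -1.30, and the nuclease gene DCLRE1A at -0.88 and -0.86, with UHRF1 higher by 0.26 and 0.27 in the authors' deposited tables. Of 8 listed genes of direct reversal and bypass, 5 were lower and 1 higher in each clone, with ALKBH2 at -0.61 and -0.71, REV1 at -0.64 and -0.51, and the fork remodeller gene HLTF at 1.79 and 1.76 in the authors' deposited tables.

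Base excision glycosylases changed in both directions. OGG1, which removes oxidised guanine, was at -1.90 (SE 0.07) and -1.87 (SE 0.07), and NTHL1, which removes oxidised pyrimidines, at -1.51 (SE 0.11) and -1.65 (SE 0.09), while MBD4 (1.04 and 1.02) and NEIL3 (1.01 and 0.96) were higher in the authors' deposited tables. Of this list of 20, H33 had 10 higher and 8 lower, while H12 had 10 higher and 9 lower. Among nucleotide excision partners, H33 had 6 of 14 higher and 6 lower, while H12 had 4 higher and 6 lower. The TFIIH genes ERCC2 (0.96 and 0.89) and GTF2H3 (0.85 and 0.94) rose and the damage sensor gene DDB2 (-0.95 and -1.003) and the transcription-coupled repair factor gene UVSSA (-0.85 and -0.88) fell in the authors' deposited tables.

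Of 11 mismatch repair partners, H33 had 7 higher and 3 lower, while H12 had 7 higher and 2 lower. Among them were the single-strand binding protein gene RPA1 at 0.99 and 1.03 and the clamp loader gene RFC2 at 0.82 and 0.81, against the sliding clamp gene PCNA at -1.11 and -1.06 and RFC1 at -0.38 and -0.30 in the authors' deposited tables. Of 27 recombination partners, H33 had 10 higher and 13 lower, while H12 had 10 higher and 14 lower. SFR1, a recombination cofactor, rose by 2.17 (SE 0.07) and 2.43 (SE 0.07) and the helicase gene RECQL by 1.12 and 1.19, while RMI2, of the BLM complex, was at -2.26 (SE 0.05) and -2.16 (SE 0.10) and the helicase gene MCM8 at -0.94 and -0.86 in the authors' deposited tables. End joining and its control had 3 of 10 listed genes higher and 5 lower in each clone. There TP53BP1, which steers breaks toward end joining, was at 1.18 and 1.14 and the Ku-binding factor gene PAXX at 0.82 and 0.66, against the shieldin gene SHLD1 at -2.26 and -2.31 and the end joining factor gene APLF at -3.002 and -2.40 in the authors' deposited tables. These 2 falls lie at low levels. APLF had an implied 0.504 CPM in H33 and 0.774 CPM in H12, against 4.04 CPM in HepG2. SHLD1 had 1.20 CPM in H33 and 1.18 CPM in H12, against 5.73 CPM in HepG2.

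Markers of hepatocytes moved further than any repair gene. All 10 hepatocyte markers, ALB and HNF4A among them, were lower in both of the authors' deposited tables, with medians of -8.76 in H33 and -5.96 in H12. Their summed level was 111 CPM in H33 and 977 CPM in H12, against 61216 CPM in HepG2, and 3 of the 10 were under 1 CPM in H33 and 1 in H12. In H12 these markers stood at 0.0136 (APOB) to 0.0181 (FGB) of their HepG2 levels, with SE from 0.73 (TTR) to 1.59 (ALB). In H33 the fractions ran from 9.04e-06 (AFP) to 0.00807 (FGB), with SE from 0.06 to 0.12. The leukocyte gene LYZ (0.0163) and the cholangiocyte gene EPCAM (0.0166) had like fractions in H12. Why the H12 fractions were so alike was not tested, so the gap between the clones in summed level is uncertain. Of markers of other cell types, 3 of 6 fibroblast, 1 of 5 endothelial, 3 of 5 leukocyte and 3 of 4 cholangiocyte genes were listed. Fibroblast genes had COL3A1 at 6.40 in H33 and 5.00 in H12, COL1A1 at 0.80 and 0.41 (not called in H12) and PDGFRB at -4.79 and -4.93, and the endothelial gene CDH5 was at -1.65 and -1.94 in the authors' deposited tables. Of cholangiocyte genes KRT19 was higher (2.36 and 2.27) and SOX9 (-2.002 and -1.65) and EPCAM (-7.30 and -5.92) lower, and the leukocyte genes LYZ (-9.71 and -5.94) and CD14 (-0.68 and -1.19) were lower in the authors' deposited tables. Summed over its listed genes, the level was 4.86 CPM in H33 and 2.38 CPM in H12, against 6.45 CPM in HepG2, for fibroblast markers, and 264 CPM in H33 and 266 CPM in H12, against 377 CPM in HepG2, for cholangiocyte markers. For leukocyte markers it was 5.39 CPM in H33 and 52.5 CPM in H12, against 3133 CPM in HepG2, nearly all of it LYZ. The part of these shifts in the values of the repair genes was not tested.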

How the data were processed

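RNA of 18 libraries, 6 per line, was analysed through 2 tables of the authors' own comparisons, with 14888 genes for H33 and 14896 for H12. Per the file headers, the authors gave for every gene the log2 ratio of clone to HepG2, the mean log2 CPM, the likelihood ratio as a score, and a p-value with its adjusted form. Tools named by the submitters' processing notes, without their roles, are STAR 2.5.3a, RSEM, bcl2fastq 2.20.0.422 and edgeR 3.28.0, with the build GRCh38.p10. How low counts were filtered and whether strand was used is not stated. The deposited p-values equal the chi-square tail of the score with 1 degree of freedom, and the adjusted ones lie within 0.000152 (H33) and 0.000105 (H12) of Benjamini-Hochberg values over the listed genes.

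Since no values per library were used, the authors' statistics took the place of the planned count tests, at an adjusted p of 0.05, with no check of replicates. The SE is the absolute fold change over the root of the likelihood ratio. Group levels assume groups of equal size. For H33 minus H12, the difference of the fold changes was divided by the root of the summed squared SE, for genes above 0.1 CPM in every group. Coordinates, exon overlaps and neighbours are from GENCODE 29 (GRCh38), promoter windows from RefSeq (GRCh38.p14), matched by symbol for 56 of the 67 genes. The work used Python 3.11.15 with pandas 2.3.3, numpy 2.4.6, matplotlib 3.10.9 and scipy 1.17.1.

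The members, classes, pathway lists and motifs were chosen with earlier results of these data known. Full statistics went to members called with a change of at least 1 log2 unit in either clone; the others are given by class. Of each pathway list, up to 2 called genes with the largest mean rise and 2 with the largest mean fall are named. MSH4 and RAD51AP2 were not among the listed genes and are not analysed here. Some members, counted in every total, are not reported singly here. Alternatives were a threshold of 0.01, a change of at least 1 log2 unit, at least 1 log2 CPM, centring on the median of all genes, Bonferroni adjustment, and an allowance for the shared HepG2 libraries.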

Additional observations from a re-analysis of the deposited data

Results flagged for a closer look

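The fold changes of ERCC6, the Cockayne syndrome B gene, differed between the clones. H33 minus H12 was -0.49 (SE 0.09, adjusted p = 2.31e-05), from 0.83 in H33 and 1.31 in H12 in the authors' deposited tables, and both clones lay above HepG2. It was picked out because the test of the difference itself passed the threshold.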

How the results depend on the processing

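No direction reversed under any alternative that was run. The counts of called genes stayed within 1.5 times of 56 (H33) and 55 (H12) at a threshold of 0.01 (56 and 51), with at least 1 log2 CPM (56 and 54), after centring on the median of all genes (56 and 55) and under Bonferroni adjustment (50 and 42). Requiring a change of at least 1 log2 unit left 9 genes in H33, 5 higher and 4 lower, and 10 in H12, 6 higher and 4 lower, by construction. At 0.01, 4 calls in H12 were lost, those of ERCC5, MSH5 and PARP1 among them. Allowing for the shared HepG2 libraries raised the count of genes that differed between the clones to 2, with MRE11 beside ERCC6; this allowance makes the SE smaller by construction. No paired analysis was possible because the tables used here hold no values per library, and leaving out replicates, DESeq2 and a filter on low counts were not run for the same reason. Depth is unknown, and abundant genes such as XRCC5, XRCC6, PRKDC and PARP1 had SE from 0.18 to 0.24 in H12, which limits the changes detectable there.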
